A study of Mus musculus with 14 samples.

Results

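Elastic fibres give stretch to vessel walls, meninges and other connective tissue, and the genes that build them were followed in the P2 mouse brain with and without Capn15. They were chosen by symbol, with earlier results of these data known, from the 17927 genes in the deposited count table. The 10 genes are Eln, the fibrillins Fbn1 and Fbn2, the cross-linking enzyme gene Lox, the fibulins Fbln1, Fbln2, Fbln5, Efemp1 and Efemp2, and Aebp1. Of these, Fbln5, Aebp1 and Eln had the largest differences between genotypes, all lower in the Capn15 KO. None of the 10 passed an FDR of 0.05 in the quasi-likelihood test of edgeR, while its likelihood ratio test called Fbln5 and Aebp1. The study itself listed Aebp1, and no other of the 10, as lower in KO at an FDR under 0.05.

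An elastic fibre has a core of cross-linked elastin, the product of Eln, laid on a scaffold of fibrillin microfibrils. Fibulins are secreted glycoproteins that bind tropoelastin, fibrillins or basement membrane proteins and guide where elastin is deposited, and lysyl oxidase, the product of Lox, oxidises lysines so that the chains can be joined. In the brain these genes are mainly expressed by fibroblasts of the meninges and by the cells of vessel walls, which are a small share of whole brain tissue.

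RNA-SEQ was performed on whole brains of 14 mice at P2 from 6 litters, 7 WT and 7 KO. The study's methods name a lacZ-Neo and a floxed line of Capn15 on C57BL/6J and do not say which of them gave these KO brains, and no treatment is given. The tissue is whole brain although the labels give the cell type as neurons. The column names of the counts give litter and sex: the WT group held 2 females and 5 males, the KO group 4 females and 3 males. Same-numbered WT and KO brains shared a litter, and litter B gave 2 such pairs. Matching by number within litter B is arbitrary, so the counts and sizes of pair differences and the tests over pairs depend on that choice. In pairs 1 to 6 both sexes were present, and in pair 7 both brains were male, so that a difference within pairs 1 to 6 holds sex as well as genotype.

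Total counts per library lay between 37620954 and 70910163, with a median of 46242273, and 3 counts in the shallowest library equal 0.0797 CPM (counts relative to the library total, scaled by TMM factors), far below every level given here. Capn15, the targeted gene, was at 25.4 ± 3.07 CPM in WT and 14.5 ± 2.67 CPM in KO (SD, n = 7 each). Its log2 fold change was -0.81 (SE 0.118), which the main test did not call (FDR 0.0747 by edgeR). The study's edgeR analysis, with sex and litter, did list Capn15 as lower at an FDR under 0.05, with a larger fold change. Here Capn15 was lower in the KO brain of 6 of 7 pairs and went against the labels in pair 7. There it was at 18.7 CPM in the library labelled WT replicate 7 and 20.2 CPM in the library labelled KO replicate 7. Without this pair, which is all of litter F, the log2 fold change of Capn15 was -0.98 (FDR 1.58e-06 by edgeR). The genotype differences of the leading members, the wider list and the markers are therefore also given without it. The summed level of 6 neuronal markers lay between 6245 and 6824 CPM, and that of 13 markers of meningeal fibroblasts between 605.9 and 789.5 CPM. Both sets of markers were thus present in every brain, while the cells their transcripts came from were not tested. Markers of cartilage and bone, which could come from skull, summed to between 26.7 and 36.1 CPM.

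The first comparison asked whether the 10 genes differ between WT and KO brains. It rests on the quasi-likelihood test of edgeR, fitted to all 17927 genes with terms for litter, sex and genotype. Differences are given as log2 fold changes, KO minus WT. No member passed an FDR of 0.05, where the background was 0.00558% of all genes (1 gene, Ptgds, which encodes a prostaglandin D synthase made in meninges and choroid plexus). The study, also with edgeR and with sex and litter, listed more genes at this FDR, among them Ptgds and Aebp1. The reason for the different number was not tested. At an unadjusted p under 0.05, 3 of the 10 were lower in KO against 2.26% of all genes, 0 were higher against 2.88%, and together these are 3 of 10 against 5.14%. The 10 were chosen with earlier results of these data known, so these shares are a description and not a test of the list. The median log2 fold change of the 10 was -0.062, and that of all genes 0.0015. In all, 7 of the 10 had a log2 fold change below 0, as had 48.6% of all genes. The WT and KO ranges overlapped for each of the 10 genes. Over all genes, 0.00558% had every KO library below every WT library and 0% had every KO library above.

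**Figure D1:**
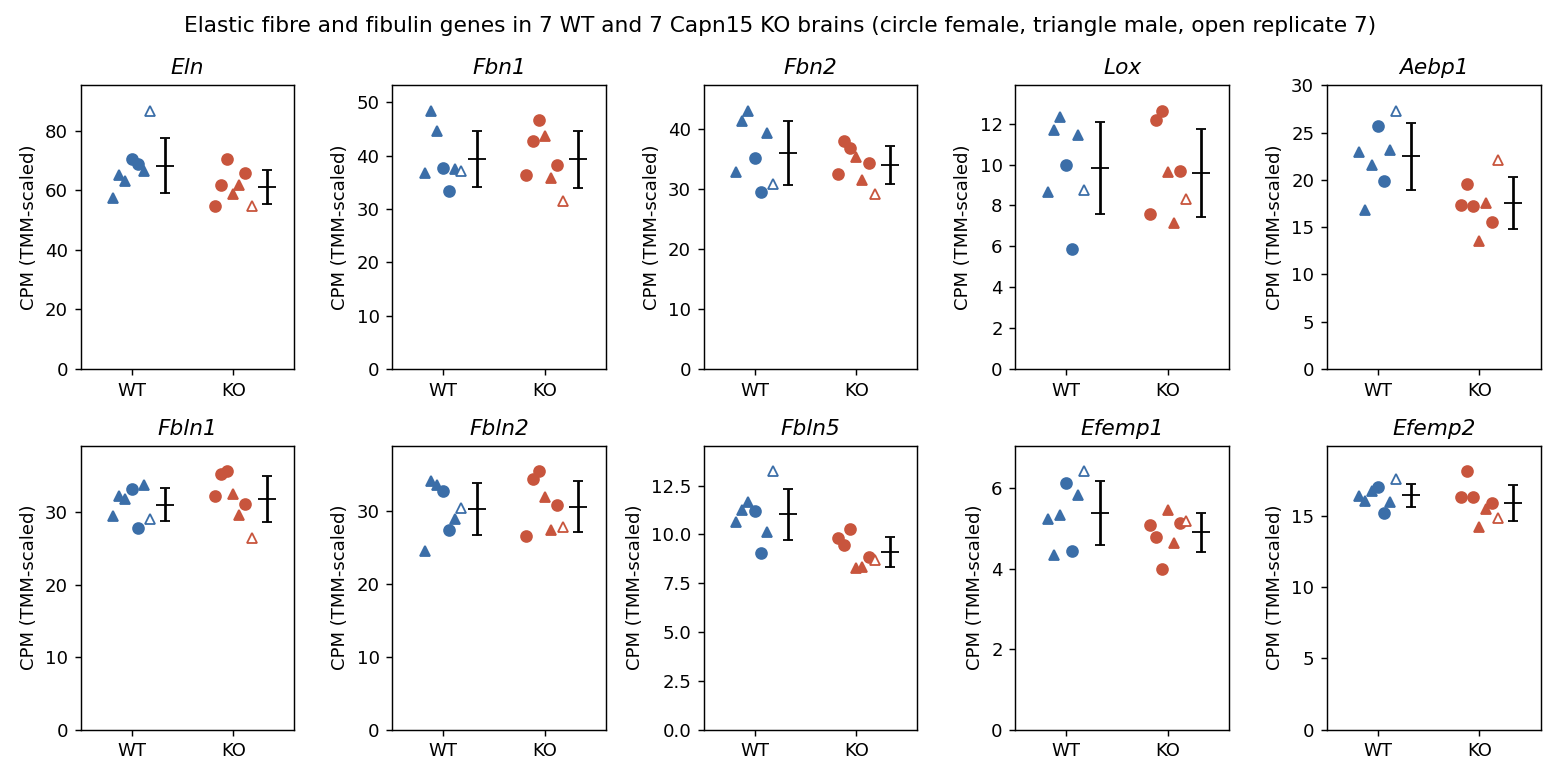
CPM of each gene (vertical axis, from 0) in the 7 WT (blue) and 7 KO (red) brains, with circles for females, triangles for males, open symbols for replicate 7, and a bar for the mean with its SD. For Fbln5, Aebp1 and Eln the KO mean sits below the WT mean, and the points of both groups overlap in every panel.

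Fbln5 encodes a fibulin that binds tropoelastin and integrins and is required for elastic fibre assembly. It ran from 9.05 through a median of 11.2 to 13.2 CPM in WT brains, and from 8.29 through 8.82 to 10.3 CPM in KO brains. Of the WT brains, replicates 5 and 6 lay within the KO range, and the highest level was in the library labelled WT replicate 7. The means were 11.0 ± 1.30 CPM in WT and 9.10 ± 0.757 CPM in KO (SD, n = 7 each), and the log2 fold change was -0.29 (SE 0.0623, 95% interval -0.43 to -0.16, unadjusted p = 0.000352, FDR 0.278 by edgeR). This is 0.816 times the WT level.

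Fbln5 was lower in KO in all 7 pairs, as were 0.597% of all genes. In litter B both KO brains (9.48 and 10.3 CPM) lay below both WT brains (11.3 and 11.7 CPM), so this count did not depend on the matching there. By pair, the log2 difference was smallest in pair 5 at -0.12 and largest in pair 7 at -0.60. The exact permutation test over 3432 regroupings of the 14 brains gave p = 0.00583 for Fbln5, and the exact sign-flip test over the 7 pairs gave p = 0.0156, the smallest it allows (both two-sided). Without pair 7 the log2 fold change of Fbln5 was -0.23 (SE 0.0584, unadjusted p = 0.0013, FDR 0.518 by edgeR), with 6 of 6 pairs lower. Over these 12 brains the exact permutation test gave p = 0.0216 and the exact sign-flip test p = 0.0312, the smallest it then allows. Among males the 3 KO brains, at 8.29 to 8.72 CPM, lay below the 5 WT brains, at 10.1 to 13.2 CPM, while among females the 4 KO brains (8.82 to 10.3 CPM) overlapped the 2 WT brains (9.05 and 11.2 CPM). The difference between the sexes in this respect was not tested. Male WT and KO brains shared only litter F, and female WT and KO brains shared none, so litter is mixed into both comparisons. The share of all genes separated in this way among males was not computed.

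Aebp1 encodes a secreted collagen-binding protein, also known as aortic carboxypeptidase-like protein, that takes part in building collagen-rich matrix. In WT brains it ran from 16.8 through a median of 22.9 to 27.3 CPM, and in KO brains from 13.6 through 17.3 to 22.1 CPM. Its groups overlapped, since WT replicate 2 was the lowest WT brain and the library labelled KO replicate 7 the highest KO brain. The means were 22.5 ± 3.52 CPM in WT and 17.5 ± 2.73 CPM in KO (SD, n = 7 each). This gave the largest difference of the 10, a log2 fold change of -0.40 (SE 0.092, 95% interval -0.59 to -0.20, unadjusted p = 0.000737, FDR 0.377 by edgeR), or 0.760 times the WT level. The study listed Aebp1 as lower in KO at an FDR under 0.05, with a larger fold change than here.

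In the pairs, Aebp1 was lower in the KO brain in 6 of 7, from -0.92 in pair 4 to -0.18 in pair 5 on the log2 scale, and higher by 0.21 in pair 2. Over all genes, 5.52% were lower in at least 6 pairs. The exact permutation test gave p = 0.0157 and the exact sign-flip test p = 0.0469 (both two-sided). Pair 4 carried a large share of the size of the difference: without either of its libraries the log2 fold change was -0.25 (FDR 0.599 and 0.597 by edgeR). Without pair 7 it was -0.41 (SE 0.101, unadjusted p = 0.00104, FDR 0.518), so that the pair whose Capn15 went against the labels did not carry it. The exact permutation test then gave p = 0.0173, while the exact sign-flip test no longer passed (p = 0.0938). The KO mean was 0.762 times the WT mean in females and 0.793 times in males (0.737 times without pair 7). Litter is mixed into these ratios as well.

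Eln encodes tropoelastin, the soluble precursor of elastin, and was the member with the most counts. It ran from 57.5 through a median of 66.3 to 86.7 CPM in WT, and from 54.6 through 61.7 to 70.6 CPM in KO. The groups overlapped over most of their range, and both ends of the whole range, 86.7 and 54.6 CPM, came from pair 7. The means were 68.2 ± 9.15 CPM in WT and 61.1 ± 5.79 CPM in KO (SD, n = 7 each), with a log2 fold change of -0.19 (SE 0.0653, 95% interval -0.33 to -0.051, unadjusted p = 0.0113, FDR 0.780 by edgeR). Eln was lower in KO in 6 of 7 pairs, but neither the exact permutation test (p = 0.0962) nor the exact sign-flip test (p = 0.156) passed 0.05. Without pair 7 the log2 fold change fell to -0.10 (SE 0.0388, unadjusted p = 0.0196, FDR 1 by edgeR). With genotype as the only term, Eln did not pass an unadjusted p of 0.05. The span of a predicted gene on the other strand, Gm30003, overlaps that of Eln. Whether their exons overlap was not checked. Where they do, reads of the 2 can be told apart only if counting used strand.

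**Figure D2:**
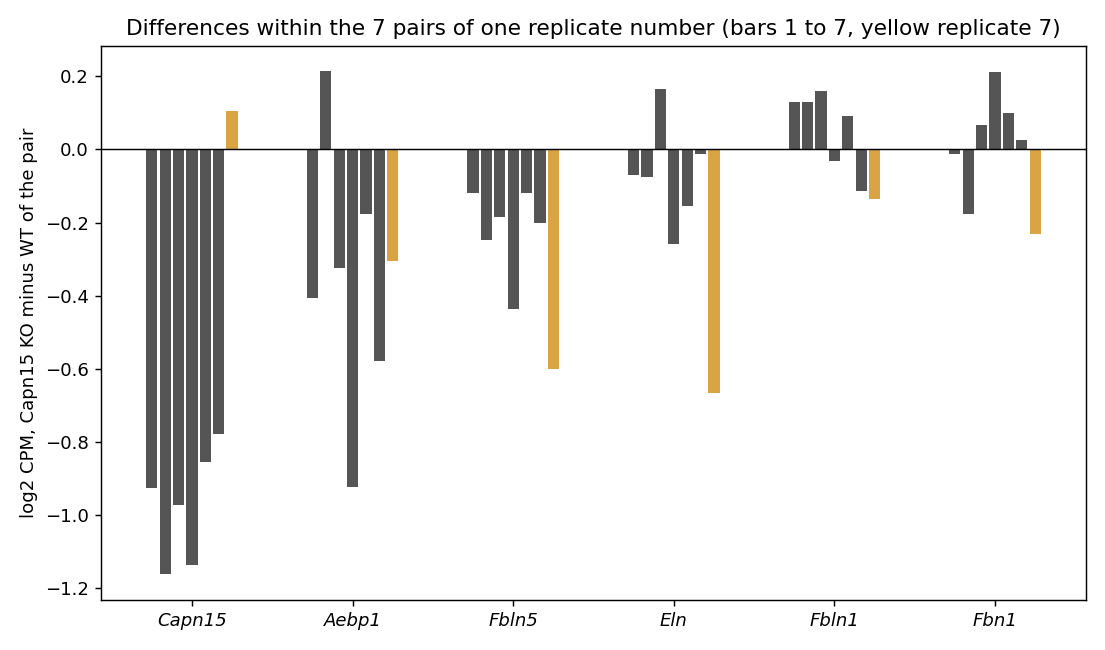
Log2 CPM of the KO brain minus that of the WT brain (vertical axis) in each pair of one replicate number, bars 1 to 7 from left to right, with pair 7 in yellow. Fbln5 is below 0 in all 7 pairs, Aebp1 in all but pair 2, Eln has its largest bar in pair 7, and Capn15 is below 0 in all but pair 7, while the bars of Fbln1 and Fbn1 lie on both sides of 0.

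The remaining fibulins showed smaller differences. Fbln1, which is found in basement membranes and in elastic fibres, was at 31.1 ± 2.28 CPM in WT and 31.8 ± 3.19 CPM in KO, with a log2 fold change of 0.023 (95% interval -0.068 to 0.11). Fbln2, found in basement membranes and developing vessels, was at 30.2 ± 3.55 and 30.6 ± 3.51 CPM, with a log2 fold change of 0.0029 (-0.068 to 0.074). For both genes the interval leaves no room for a difference as large as the estimate for Fbln5, and pairs fell on both sides of 0, with 3 of 7 lower for Fbln1 and 2 of 7 for Fbln2.

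Efemp1, which encodes a fibulin whose mutation causes an inherited retinal disease in people, was the least abundant member in CPM, with 5.39 ± 0.798 in WT and 4.90 ± 0.477 in KO (SD, n = 7 each). Its log2 fold change was -0.12 (95% interval -0.28 to 0.033, unadjusted p = 0.113), lower in 5 of 7 pairs. Efemp2, whose product brings lysyl oxidase to tropoelastin, was at 16.4 ± 0.785 and 15.9 ± 1.26 CPM. Its log2 fold change was -0.073 (-0.18 to 0.034, unadjusted p = 0.163), also lower in 5 of 7 pairs. This count depends on the matching too, with 16.0 and 16.8 CPM in WT replicates 2 and 3 and 18.1 and 16.4 CPM in KO replicates 2 and 3. Efemp2 varied least over the 14 brains, with a coefficient of variation of 6.46%.

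The fibrillins, whose products form the microfibril scaffold, did not pass the test. Fbn1 was at 39.4 ± 5.22 CPM in WT and 39.3 ± 5.31 CPM in KO, with a log2 fold change of 0.020 (95% interval -0.076 to 0.12). Fbn2, the fibrillin typical of developing tissue, was at 36.0 ± 5.29 and 33.9 ± 3.11 CPM, with a log2 fold change of -0.050 (-0.12 to 0.021). Lox was at 9.82 ± 2.25 CPM in WT and 9.59 ± 2.15 CPM in KO, with a log2 fold change of -0.0052 (-0.13 to 0.12) and 4 of 7 pairs lower. Its pair count depends on the matching in litter B, with 11.7 and 12.3 CPM in WT replicates 2 and 3 and 12.2 and 12.6 CPM in KO replicates 2 and 3. The signs of Fbn1 and Lox, both close to 0, turned under other settings.

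**Figure D3:**
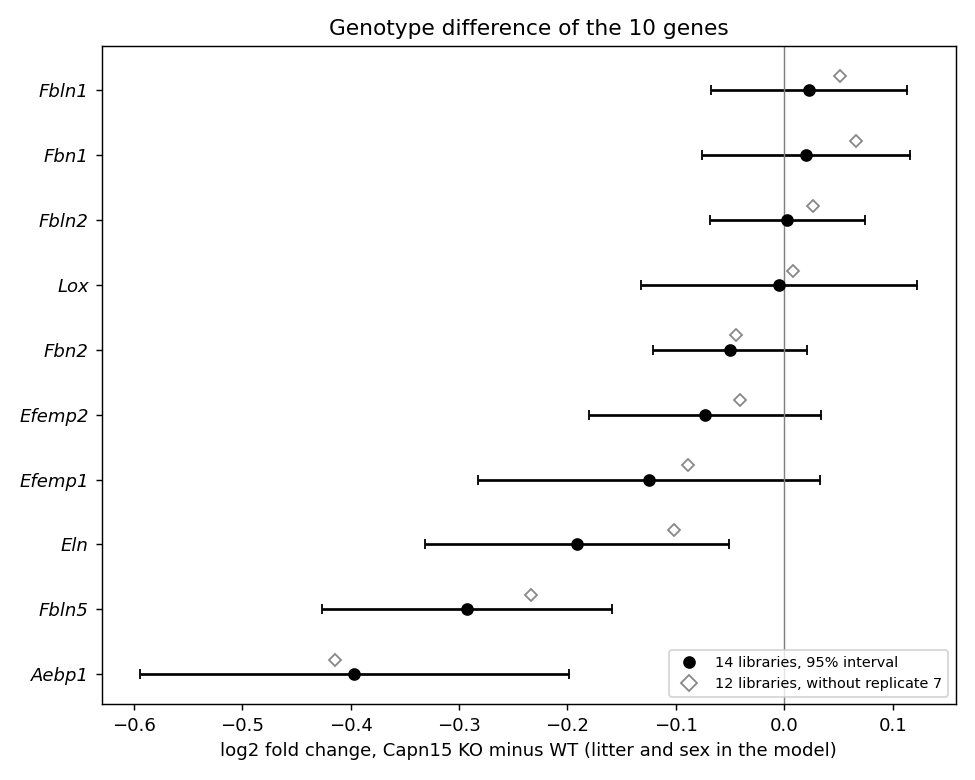
Log2 fold change, KO minus WT (horizontal axis), of each of the 10 genes with its 95% interval from all 14 libraries (black), and the estimate from 12 libraries without pair 7 (open diamonds). The intervals of Aebp1, Fbln5 and Eln lie below 0, and the estimate of Eln moves from -0.19 to -0.10 without pair 7.

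The call on the members depended on the tool. Since the 10 were chosen with earlier results of these data known, the shares of all genes given beside them are a description. The likelihood ratio test of edgeR called 2 of the 10, Fbln5 (FDR 0.0106) and Aebp1 (FDR 0.0204), both lower, where it called 0.19% of all genes and 0.145% as lower. DESeq2 called 0 of 10 against 0.139% of its tested genes, with an adjusted p of 0.0924 for Fbln5 and 0.362 for Aebp1. Limma-voom called 0 of 10 against 0.00558%, with an FDR of 0.275 for Fbln5. The exact permutation test was under 0.05 without adjustment for 2 of 10, Fbln5 and Aebp1, both lower, against 1.73% of all genes and 0.92% in that direction, and the exact sign-flip test for the same 2 against 3.55%. Without pair 7 the quasi-likelihood test called 0 of 10 against 0.039% of all genes, and 3 of 10 were lower at an unadjusted p under 0.05 against 1.92%. The likelihood ratio test without pair 7 called only Aebp1 (FDR 0.0328) and no longer Fbln5 (FDR 0.0882), against 0.206% of all genes, and DESeq2 called 0 of 10 against 0.0865%.

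The promoters of Fbln5, Aebp1 and Efemp2 are printed because Fbln5 and Aebp1 had the 2 largest differences and Efemp2 is a fibulin gene whose difference was small and whose level varied least. Each window holds the 250 bases before the RefSeq gene start on GRCm38.p6 and lies outside its own gene in GENCODE M21. Overlap with other genes was not checked. Capitals mark the motifs found on either strand, GGGCGG (GC box) or CCAAT, the only ones found of 4 that were searched.
Fbln5, chr12:101819120-101819369, minus strand: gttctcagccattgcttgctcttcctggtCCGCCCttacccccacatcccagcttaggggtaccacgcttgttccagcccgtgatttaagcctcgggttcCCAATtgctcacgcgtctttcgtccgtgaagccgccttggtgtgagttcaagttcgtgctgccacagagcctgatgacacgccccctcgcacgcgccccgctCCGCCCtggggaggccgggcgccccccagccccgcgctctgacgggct
Aebp1, chr11:5861616-5861865, plus strand: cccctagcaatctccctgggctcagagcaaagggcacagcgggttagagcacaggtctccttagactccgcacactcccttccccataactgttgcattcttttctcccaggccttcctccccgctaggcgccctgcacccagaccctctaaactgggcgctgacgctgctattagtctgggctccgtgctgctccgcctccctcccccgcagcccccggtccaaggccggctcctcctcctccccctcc
Efemp2, chr19:5473696-5473945, plus strand: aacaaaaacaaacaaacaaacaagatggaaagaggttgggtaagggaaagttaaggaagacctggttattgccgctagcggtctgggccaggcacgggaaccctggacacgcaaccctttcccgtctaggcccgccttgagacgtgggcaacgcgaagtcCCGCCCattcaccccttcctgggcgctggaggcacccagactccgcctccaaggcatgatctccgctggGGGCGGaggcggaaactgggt

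The Fbln5 window held 2 GC boxes and 1 CCAAT, the Efemp2 window 2 GC boxes and the Aebp1 window neither. Among the windows of 27025 genes, 33% held GGGCGG and 34.5% held CCAAT. The other motifs searched, TATAAA and the AP-1 letters TGACTCA or TGAGTCA, were in 13% and 4.43% of windows and in none of the 7 windows listed for members. All motifs were read on both strands, and no matches overlapped in the windows printed. The share of G and C was 65.2% in the Fbln5 window, 64.4% in the Aebp1 window and 59.2% in the Efemp2 window, against a median of 52.0% over all windows. These matches are letters and not binding sites.

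To place the 10 genes in their pathway, 48 further symbols of elastic fibre assembly and turnover were looked up in the same fit, and 46 were found. Adamtsl6 is another name of Thsd4, which is among the 46, and Mmp12 was not analysed here. None passed an FDR of 0.05 by edgeR, DESeq2 or limma-voom, and 41 did not pass an unadjusted p of 0.05. At that p, 4 of the 46 were lower and 1 was higher, where 2.26% of all genes were lower and 2.88% higher. The median log2 fold change was -0.014, against 0.0015 over all genes. Of the lower genes, Thsd4, whose ADAMTS-like product promotes microfibril assembly, was lower in all 7 pairs, with 18.04 ± 1.75 CPM in WT and 16.1 ± 1.35 CPM in KO and a log2 fold change of -0.15 (SE 0.0439, unadjusted p = 0.00369, FDR 0.587). Postn, which encodes periostin, a matricellular protein, had a log2 fold change of -0.14 (unadjusted p = 0.0122).

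Microfibril proteins gave 2 of the 4 lower genes and no higher gene, of 12 measured. These were the latent TGF-beta binding proteins Ltbp2, with a log2 fold change of -0.40 (unadjusted p = 0.032) at a level of only 0.908 ± 0.154 CPM in WT, and Ltbp1, with -0.13 (unadjusted p = 0.0416). Mfap4, a microfibril-associated glycoprotein gene, had a log2 fold change of -0.14 (unadjusted p = 0.0524) and Mmrn1 one of -0.24 (unadjusted p = 0.109). The gene that was higher was Ctss, which encodes the elastin-degrading protease cathepsin S of microglia, with 14.5 ± 1.14 CPM in WT and 16.6 ± 2.63 CPM in KO and a log2 fold change of 0.20 (unadjusted p = 0.0268). None of the 3 other fibulin-like genes passed, among them Hmcn1 at 0.10 (unadjusted p = 0.0765), and none of the 3 TGF-beta ligands did. Of 8 lysyl oxidases and helpers only Postn passed, and of 9 ADAMTS and ADAMTS-like genes only Thsd4. Without pair 7, 3 of the 46 were lower and 1 was higher, against 1.92% and 1.82% of all genes. Of the 5 that had passed, Thsd4 (-0.16, unadjusted p = 0.00502), Postn (-0.10, unadjusted p = 0.0496) and Ctss (0.24, unadjusted p = 0.0119) still passed. Ltbp2 (unadjusted p = 0.0924) and Ltbp1 (unadjusted p = 0.0613) no longer did, and Mfap4 did (-0.16, unadjusted p = 0.0402).

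Markers of the cells that could hold these transcripts were read beside them, to be set against the 2.26% of all genes that were lower and the 2.88% that were higher at an unadjusted p under 0.05. Of the 13 markers of meningeal fibroblasts, 4 were lower at an unadjusted p under 0.05 (Lum, Crabp2, Slc6a13 and Slc22a6) and 0 higher. The summed level of the 13 ran from 605.9 through 734.3 to 789.5 CPM in WT and from 644.6 through 662.7 to 766.9 CPM in KO, lower in 5 of 7 pairs. Col3a1 (207 CPM), Pdgfra (168 CPM) and Col1a2 (141 CPM) led this sum, and none of them passed. Whether the transcripts of these 3 genes came from meningeal fibroblasts alone was not tested. Of the 9 markers of mural cells, 3 were lower (Acta2, Myh11 and Tagln) and 0 higher. In all, 5 of the 9 had a log2 fold change below 0, while Abcc9 (0.11), Kcnj8 (0.085), Notch3 (0.021) and Pdgfrb (0.0071) lay above 0. The sum of the 9 had a median of 249 CPM in WT and 251 CPM in KO. Rgs5 was the largest part of that sum, with a mean of 136 CPM, against 8.55, 4.35 and 3.60 CPM for Acta2, Myh11 and Tagln. Of the 7 markers of choroid plexus epithelium, 6 were lower, and their sum ran from 757.2 to 996.5 CPM in WT and from 619.8 to 864.8 CPM in KO, lower in all 7 pairs, with a mean log2 difference of -0.31. The lowest of these choroid plexus markers, Kl, still had a mean of 4.21 CPM. Without pair 7 the same 4 meningeal markers were lower, 2 mural markers (Myh11 and Tagln) and 5 choroid plexus markers, of which Ttr passed an FDR of 0.05 (FDR 0.0485 by edgeR), and the choroid plexus sum was lower in 6 of 6 pairs with a mean log2 difference of -0.26.

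Endothelial markers gave 1 of 7 higher (Cldn5), markers of astrocytes and radial glia 1 of 5 lower (Gja1), and cartilage and bone 1 of 6 higher (Runx2). Neurons (6 markers), microglia (4), red blood cells (5) and skin and skeletal muscle (2) gave 0. Without pair 7, Cldn5 was still higher, Gja1 and Runx2 no longer passed, and 1 red blood cell marker, Hba-a2, was lower. Bglap, Krt5, Krt14 and Myod1 were not analysed here. The part of these markers in the differences of Fbln5, Aebp1 and Eln was not tested, and in whole tissue fewer cells of a type and less RNA per cell cannot be told apart.

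The second comparison asked how the members vary between the 6 litters, with genotype and sex in the model. It called 5 of the 10 at an FDR of 0.05, against 29.6% of all genes, and 6 of 10 at an unadjusted p under 0.05, against 41%. Lox varied most, with a range of 0.91 on the log2 scale between fitted litter levels (FDR 0.000121 by edgeR): its mean was 6.50 CPM in the 2 brains of litter D and 12.2 CPM in the 4 brains of litter B. Fbn2 had a range of 0.45 (FDR 0.000203), Fbn1 one of 0.44 (FDR 0.0017) and Fbln2 one of 0.43 (FDR 0.000365). Fbln1 followed with 0.26 (FDR 0.0403), a call that was lost without pair 7 (FDR 0.0694) and when any of WT replicates 1, 2, 3 and 5 or KO replicates 1, 2, 3, 4 and 7 was left out (FDR 0.0522 to 0.129).

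These 5 genes were highest in litter B, which held 2 WT and 2 KO brains. Fbn2 ran from 30.01 CPM in litter F to 39.8 CPM in litter B, and Fbn1 from 34.3 CPM in litter F to 45.7 CPM in litter B. Fbln2 ran from 25.6 CPM in litter A to 34.4 CPM in litter B, and Fbln1 from 27.7 CPM in litter F to 33.7 CPM in litter B. For these 5 genes the ranges between litters, 0.26 to 0.91, stand beside genotype differences of -0.050 to 0.023 on the same log2 scale.

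The 3 genes with the largest genotype differences were not among those called between litters: Fbln5 had an FDR of 0.137, Aebp1 one of 0.218 and Eln one of 0.239, with Efemp1 at 0.105 and Efemp2 at 0.626. Their ranges between litters were nonetheless 0.36 for Fbln5, 0.45 for Aebp1 and 0.39 for Eln, which the test did not call. These ranges moved with single litters and libraries: for Aebp1 to 0.088 without pair 7 and 0.84 without KO replicate 5 (0.74 without WT replicate 4), for Fbln5 to 0.62 without KO replicate 5, and for Eln to 0.23 without pair 7 or WT replicate 7 and 0.63 without KO replicate 7. Both Fbln5 (FDR 0.0303) and Eln (FDR 0.00124) were called without the library labelled KO replicate 7, Fbln5 without KO replicate 5 (FDR 0.0453), Eln without pair 7 (FDR 0.0492), and Efemp1 by the likelihood ratio test (FDR 0.0443). Aebp1 was highest in litter F, at 24.7 CPM, where both Capn15 levels were intermediate, and lay between 18.7 and 20.1 CPM in the other 5 litters. Whether litter stands for a shared mother, day of dissection or library preparation is not given in the sources used here.

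**Figure D4:**
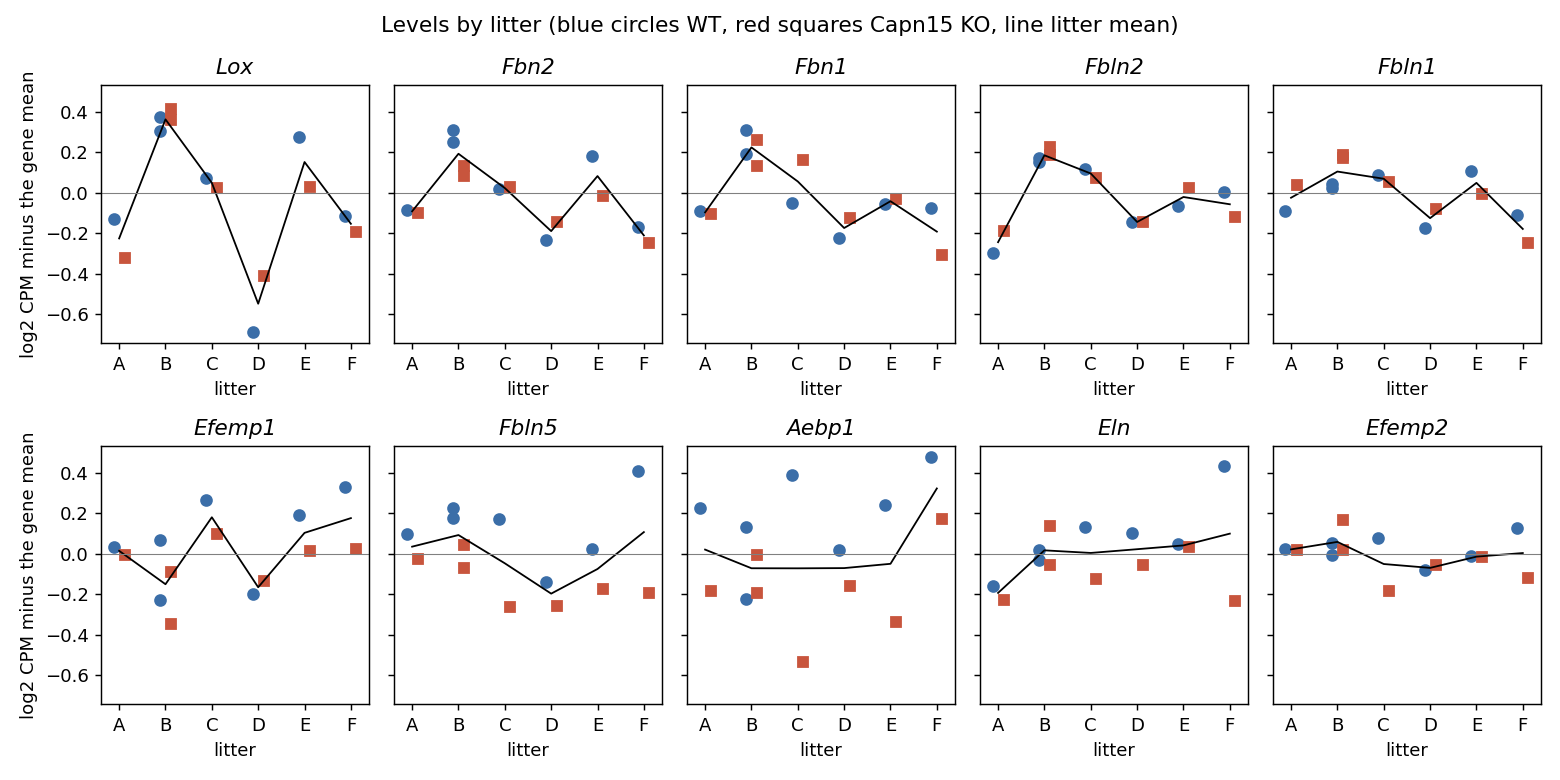
Log2 CPM minus the mean of the gene over all 14 brains (vertical axis) by litter A to F, with blue circles for WT, red squares for KO and a line through the litter means. Lox, Fbn2, Fbn1 and Fbln2 peak in litter B with both genotypes together, while for Fbln5 the red squares lie below the blue circles within every litter.

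Sex was read from the same model. None of the 10 genes was called at an FDR of 0.05, against 0.0669% of all genes, nor by the likelihood ratio test, DESeq2 or limma-voom, and 1 of 10 passed an unadjusted p of 0.05, against 5.04%. That gene was Fbn2, with a log2 fold change, female minus male, of -0.092 (SE 0.0358, unadjusted p = 0.0224, FDR 0.927 by edgeR). Its unadjusted means were 34.4 CPM in 6 females and 35.4 CPM in 8 males. Eln had the largest estimate, 0.13 higher in females (SE 0.0705, unadjusted p = 0.0776). The count moved with single libraries. It was 3 of 10 (Eln, Fbn1 and Fbn2) without pair 7 or either of its libraries. It was 4 of 10 (Aebp1, Efemp2, Eln and Fbln5) without WT or KO replicate 5, and 0 of 10 without WT or KO replicate 6. Over all genes, 873 of 17927 passed without pair 7, against 904 with all libraries. The number over all genes was not taken with single libraries left out, so those member counts have no background.

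Levels of the members relative to each other were compared per kilobase of exon. For this, CPM were divided by the exon length of the gene in GENCODE M21, merged over all its transcripts. The order depends on this length, which was 6911 bases for Fbln5, 4778 for Lox and 2037 for Efemp1. In CPM alone, Fbln5 (mean 10.1) lay above Lox (9.71) and Efemp1 (5.14). Eln came first with 7.99 ± 1.02 CPM per kilobase (SD, n = 14), followed by Fbln1 with 7.20 ± 0.617. Aebp1 (4.93 ± 0.979), Fbln2 (4.78 ± 0.533) and Efemp2 (4.27 ± 0.276) formed a middle group. They were ahead of Fbn1 (3.24 ± 0.417), Fbn2 (2.65 ± 0.326), Efemp1 (2.52 ± 0.334), Lox (2.03 ± 0.444) and Fbln5 (1.46 ± 0.207). The ranges of all neighbours in this order overlapped. Within single brains, Efemp2 was above Fbn1 and Fbn1 above Fbn2 in 14 of 14, but Fbn2 was above Efemp1 in only 8 of 14 and Aebp1 above Fbln2 in only 9 of 14. Eln was above Fbln1 in 11 of 14.

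**Figure D5:**
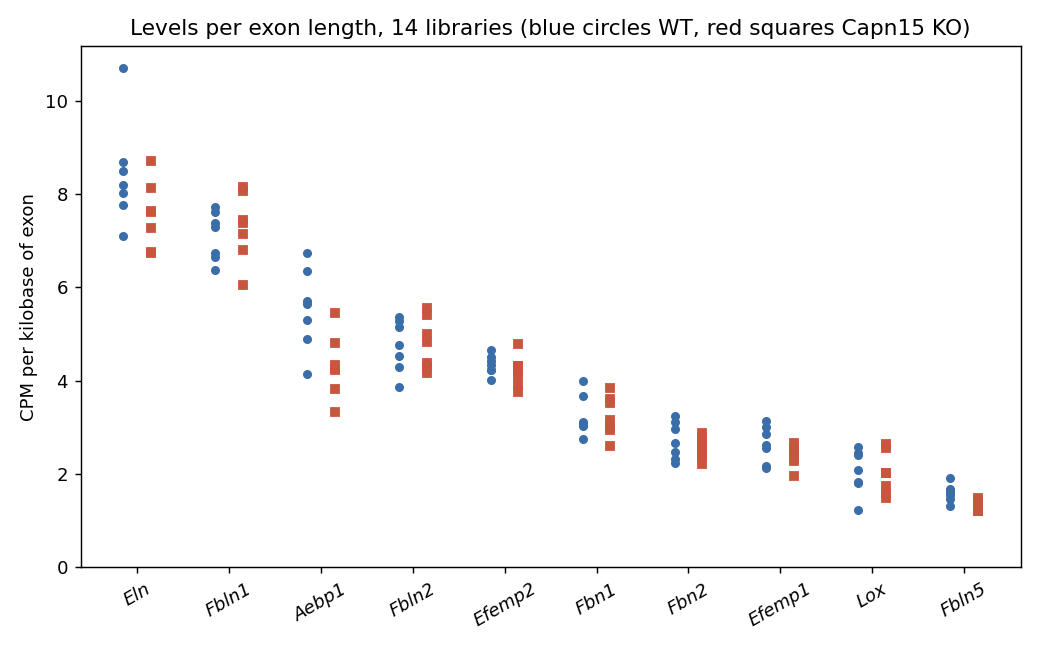
CPM per kilobase of exon (vertical axis, from 0) of the 10 genes in falling order of their means, with blue circles for the 7 WT and red squares for the 7 KO brains. Eln and Fbln1 lie highest and Fbln5 lowest, and each gene overlaps the next.

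In this order, Eln stood at the 66.1 percentile of all genes with an exon length and Fbln5, at 1.46 CPM per kilobase, at the 30.9 percentile. The counts were over genes of different length and structure, and the bases of exon given here are merged over all transcripts. Eln (chr5:134702593-134747323, minus strand, 37 exons in its longest transcript) has 8098 bases of exon, Fbln5 (chr12:101746565-101819055, minus, 11 exons) 6911 bases, Aebp1 (chr11:5861947-5872088, plus, 21 exons) 4058 bases and Fbn1 (chr2:125300594-125507993, minus, 65 exons) 12128 bases, all on GRCm38. Counts were made over whole genes, so that splice forms were not told apart. Efemp2 overlaps Mus81 on the other strand.

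How the members moved together over the 14 brains was described by the correlation of log2 CPM once each genotype's own mean had been taken off. Of the 45 pairs of members, 34 had a positive Pearson's r, with a median of 0.353. The closest were Fbn2 with Lox (r = 0.880, Spearman's rho 0.855) and Fbn1 with Fbn2 (r = 0.854, rho 0.868), and the most opposed were Fbn1 with Aebp1 (r = -0.53, rho -0.47). Aebp1 also ran against Fbn2 (r = -0.39) and was close to 0 with Lox (r = -0.068). These brains share litters, sexes and depth, so that the values are given without a p. The share of positive r over pairs of other genes was not computed, so the counts have no background.

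Over 15227 genes with a mean of at least 1 CPM, the genes whose pattern was most like that of a member were found in the same way. For Aebp1 they were Uqcrc1 (r = 0.914), Hadha (r = 0.895) and Olfml1 (r = 0.892). For Fbln5 they were Arhgap11a (r = 0.825), Fam43a (r = 0.805) and Mchr1 (r = 0.793), the loosest of any member, and for Eln Taf15 (r = 0.921), Mpzl1 (r = 0.913) and Gm24601 (r = 0.876). Fbn1 was most like Cnot1 (r = 0.970), Rpl34 (r = 0.963) and Kdm3a (r = 0.962), and Fbn2 most like Spag7 (r = 0.945), Naca (r = 0.939) and Cd24a (r = 0.929). Lox was most like Cep57 (r = 0.935), Tmem147os (r = 0.923) and Notch2 (r = 0.923). Fbln1 had Tubb2b (r = 0.935), Prdx2 (r = 0.928) and Ppp1r14b (r = 0.922), and Fbln2 had Afg3l1 (r = 0.954), Zbed5 (r = 0.953) and Angel2 (r = 0.949). Efemp1 had Dpp4 (r = 0.903), Inka1 (r = 0.878) and Fam180a (r = 0.875), and Efemp2 had Fkbp10 (r = 0.876), Tom1 (r = 0.832) and Igfbp4 (r = 0.815). No member was among the 3 nearest genes of another member.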

How the data were processed

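RNA-SEQ was performed at P2 on 14 whole brains, 7 WT and 7 KO for Capn15. The authors depleted ribosomal RNA, trimmed reads with Trimmomatic, aligned them to GRCm38 with STAR and deposited counts per gene, not normalized, for 17927 genes they had filtered by a rule not given in the sources used here. The labels name a TruSeq Stranded kit and featureCounts, the study's methods ScriptSeq and HTSeq-count, and whether counting used strand is not given in the sources used here. The labels gave genotype and replicate number, and the names of the count columns gave the litter and the sex.

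Tests were run with edgeR 4.0.16 under R 4.3.3 (quasi-likelihood test, TMM factors, genes with 1 or more counts, litter, sex and genotype as terms, Benjamini-Hochberg FDR over all genes under 0.05), with limma 3.58.1 and DESeq2 1.42.0 as alternatives. CPM carry TMM factors, and log2 CPM a prior count of 2. Intervals of fold changes are at 95%. Exact permutation tests used 3432 regroupings (smallest p 0.000583) and exact sign-flip tests 128 sign patterns, both two-sided. All p-values measure the spread between these 14 animals. No 2 libraries were copies, since the chi-square per gene of the closest was 4.66. Exon lengths and positions came from GENCODE M21 (17915 genes matched by identifier) and promoters from RefSeq on GRCm38.p6, where 7 members matched.

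Same-numbered brains come from the same litter by the column names, and their deviations from the group means had correlations of 0.319, 0.416, 0.323, -0.47, -0.10, -0.068 and 0.443 for pairs 1 to 7 over 15227 genes. The members, the wider list and the markers were chosen with earlier results of these data known. The text names the 10 members, Capn15, the 8 genes of the wider list with the smallest p, and the 3 genes most like each member. Alternatives changed the test, the normalization, the low-count filter or the covariates, used a replicate block, or left out single libraries or pair 7, and the exact tests, the other tools and the markers without pair 7 were added after seeing the data.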

Additional observations from a re-analysis of the deposited data

Results flagged for a closer look

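Among the 22 groups of 7 libraries examined, made of the 10 members and Capn15 in both genotypes, 2 held a library that stood apart from the others, where 1.1 would by chance. Both concern Capn15, and both brains came from litter F. Labelled WT replicate 7, the first had 4.23 log2 CPM of Capn15, where the next lowest WT library had 4.64. The library labelled KO replicate 7 had 4.34 log2 CPM, where the next highest KO library had 3.87. No member had a library that stood apart in either genotype. The cause was not tested.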

How the results depend on the processing

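With 7 brains a group, precision is limited: the 95% interval of the log2 fold change ran from -0.28 to 0.033 for Efemp1 and from -0.18 to 0.034 for Efemp2. The number of genes that differed by genotype over the whole table, 1 in the quasi-likelihood test, was 34 with the likelihood ratio test, 22 with DESeq2, 0 with library totals only, 2 with litter but no sex, 7 without pair 7 and 0 to 7 when each library was left out in turn. With the replicate block, the replicate number in place of litter, it was 0, and no member was called. The same 3 members were then under an unadjusted p of 0.05, against 811 of 17927 genes. Members called by genotype were 0 in every setting except the likelihood ratio test, which called 2 (1 without pair 7), and 0 to 0 when libraries were left out. Genes called by sex, 12 in all, were 36 with the likelihood ratio test, 19 with DESeq2, and 11 to 16 when libraries were left out. Members called between litters were 5, and 4 to 6 when libraries were left out, where the number over all 17927 genes was 5301, and 3626 to 5770.

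When libraries were left out in turn, the log2 fold change of Fbln5 stayed between -0.38 and -0.23, that of Aebp1 between -0.53 and -0.25 and that of Eln between -0.26 and -0.10. At an unadjusted p under 0.05, Efemp2 joined them without WT or KO replicate 5, and Fbn2 without KO replicate 1. The number over all 17927 genes moved as well. It was 1442 without WT replicate 5, 1448 without KO replicate 5 and 706 without KO replicate 1, against 922 with all libraries. Values near 0 changed sign: Fbln1 ran from -0.016 to 0.052, Fbln2 from -0.018 to 0.027, Fbn1 from -0.025 to 0.066 and Lox from -0.071 to 0.053. Fbn1 was -0.00042 with genotype alone and -0.0019 with litter but no sex, and Lox was 0.0080 without pair 7. For sex, Efemp1 ran from -0.053 to 0.046 and Aebp1 from -0.043 to 0.27. Other scalings moved the median of all genes by -0.0012 and -0.0023. The causes were not tested.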
